A study of Mus musculus with 14 samples.

Results

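The 77 genes described here encode proteins of the mitochondrial ribosome and were chosen by name alone, as every gene of the deposited tables whose symbol is Mrps or Mrpl followed by a number and at most 1 letter. They are 77 of the 45706 genes in the tables, all are protein coding, they lie on 17 chromosomes, and no symbol occurred more than once. They were sorted by place in the ribosome from general knowledge. The large subunit had 31 proteins with a bacterial counterpart, Mrps18a among them, and 19 found only in mitochondria, Mrps30 among them. The small subunit had 17 and 9. Mrps36 carries the family name but works in a metabolic enzyme complex, and it was kept as a class of its own.

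The mitochondrial ribosome translates the few messenger RNAs that the mitochondrial genome encodes, which specify core subunits of the respiratory chain. Its ribosomal RNAs come from the mitochondrial genome, whereas every protein is made from a nuclear gene, translated in the cytosol and imported. Red cell precursors need mitochondria for heme and iron-sulfur cluster synthesis and lose them as they mature. Prmt5, the gene deleted in the study, encodes an enzyme that methylates arginine residues symmetrically, with histones and splicing proteins among its substrates.

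RNA of 14 libraries in 6 groups was sequenced. From E14.5 fetal liver, Ter119neg and Ter119pos cells (Ter119 is a surface antigen of maturing erythroid cells) were collected from mice with floxed Prmt5 alleles that carried Vav-cre (KO), a recombinase transgene driven in blood-forming cells, or carried no cre (WT). Each of these 4 groups had 2 libraries. Mice 1 and 2 gave both KO fractions, mouse 4 gave library B of both WT fractions, and mice 3 and 5 gave library A of the Ter119neg and the Ter119pos WT group. LK cells, named by the labels as a sorted population, came from mice with floxed Prmt5 with Mx1-cre (KO), a recombinase induced by interferon, or without cre (WT), 7 days after poly(I:C). There were 3 libraries, A to C, in each group. Both alleles are floxed in every mouse, so the WT groups carry unrecombined floxed alleles. The labels do not say whether libraries A to C come from separate mice, and p-values in LK cells then measure only the spread between these libraries, which may be technical.

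Prmt5 itself checked the labels. In Ter119pos cells its level was 13.77 and 17.71 CPM (counts relative to library size, scaled by edgeR's TMM factors) in WT and 3.64 and 4.917 in KO. In Ter119neg cells it was 52.26 and 51.77 in WT and 4.509 and 4.256 in KO, and in LK cells 110.2, 63.06 and 69.85 in WT and 11.75, 12.31 and 10.55 in KO. No KO library reached a WT library of its cell type. Total expected counts ran from 19514550 to 30976961 per library. The 77 genes together received 58953 to 126272 counts per LK library, 56696 to 83764 per Ter119neg library and 16124 to 26877 per Ter119pos library, so the fewest reads stood behind the Ter119pos values. All 77 passed the filter on low counts in both tables. Standard errors (SE) below include counting error and the spread between libraries, and a level in bulk cells cannot tell fewer cells of a type from less RNA per cell.

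Where each gene starts is part of the description of a family that lies on 17 chromosomes. RefSeq windows on GRCm38.p6, from 250 bases before to 50 bases after the start of transcription, were matched by symbol for 68 of the 77 genes and gave 74 windows. Of the 4 windows printed here in the gene's own direction, 2 belong to genes with large rises in Ter119pos KO cells (Mrpl52 and Mrpl32), and 2 to genes with large differences between the WT fractions (Mrps27 and Mrps26). Capitals mark matches to the motifs searched.
Mrpl52 chr14:54426659-54426958, plus strand: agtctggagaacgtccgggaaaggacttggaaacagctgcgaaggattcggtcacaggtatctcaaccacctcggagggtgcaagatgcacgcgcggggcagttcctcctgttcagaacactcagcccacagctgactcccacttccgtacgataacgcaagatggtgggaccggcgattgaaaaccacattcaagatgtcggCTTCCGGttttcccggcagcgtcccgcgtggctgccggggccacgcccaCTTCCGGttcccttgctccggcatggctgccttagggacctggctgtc
Mrpl32 chr13:14612988-14613287, minus strand: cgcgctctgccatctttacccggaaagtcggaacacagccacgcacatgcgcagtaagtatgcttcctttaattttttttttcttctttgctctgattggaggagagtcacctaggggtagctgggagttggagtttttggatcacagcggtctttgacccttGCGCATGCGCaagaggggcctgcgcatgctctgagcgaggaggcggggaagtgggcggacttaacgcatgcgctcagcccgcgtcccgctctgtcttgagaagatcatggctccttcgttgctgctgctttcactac
Mrps27 chr13:99344536-99344835, plus strand: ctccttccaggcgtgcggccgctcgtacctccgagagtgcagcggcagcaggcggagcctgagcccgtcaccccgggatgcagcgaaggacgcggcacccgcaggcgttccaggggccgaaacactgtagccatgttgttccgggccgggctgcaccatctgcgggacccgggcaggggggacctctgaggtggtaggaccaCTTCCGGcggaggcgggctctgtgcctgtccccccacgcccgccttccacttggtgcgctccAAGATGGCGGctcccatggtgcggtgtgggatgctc
Mrps26 chr2:130563507-130563806, plus strand: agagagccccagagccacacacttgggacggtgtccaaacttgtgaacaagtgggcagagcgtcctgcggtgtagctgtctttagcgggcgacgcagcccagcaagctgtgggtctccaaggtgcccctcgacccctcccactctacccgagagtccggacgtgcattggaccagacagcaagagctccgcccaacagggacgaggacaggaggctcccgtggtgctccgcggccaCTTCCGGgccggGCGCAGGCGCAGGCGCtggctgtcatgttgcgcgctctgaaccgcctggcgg

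Searched on both strands were CCGGAAG, bound by ETS factors such as GABP (CTTCCGG on the other strand), the NRF1 motif with its middle base free and, as a narrower form, with that base fixed, the YY1 motif, and CACGTG, the E-box bound by Myc among others. Mrpl52 and Mrps27 show the ETS letters, Mrps27 also those of YY1, Mrpl32 the narrower NRF1 form, and Mrps26 the ETS letters and 2 overlapping matches of the wider NRF1 form. These factors are known regulators of nuclear genes for mitochondrial proteins. Matches were counted per window, and the narrower NRF1 form is contained in the wider one. The ETS letters stood in 33.78% of the 74 windows, that is in 25, against 8.858% of all 32851 windows of the same length. The wider NRF1 letters stood in 17.57%, against 4.603%, the narrower in 4.054%, against 0.9711%, and the YY1 letters in 6.757%, against 0.8523%. The E-box stood in 9.459%, close to the 7.15% of all windows. At least 1 of these motifs lay in 42 of the 74 windows, against 18.81% of all windows. The windows of Mrps6 and Mrps25, described below, held none of these letters. Median GC content was 58.5% in the members' windows and 52.7% in all, and the share of motif matches was not matched for GC. A match is a description of letters and was not tested as a site.

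**Figure D1:**
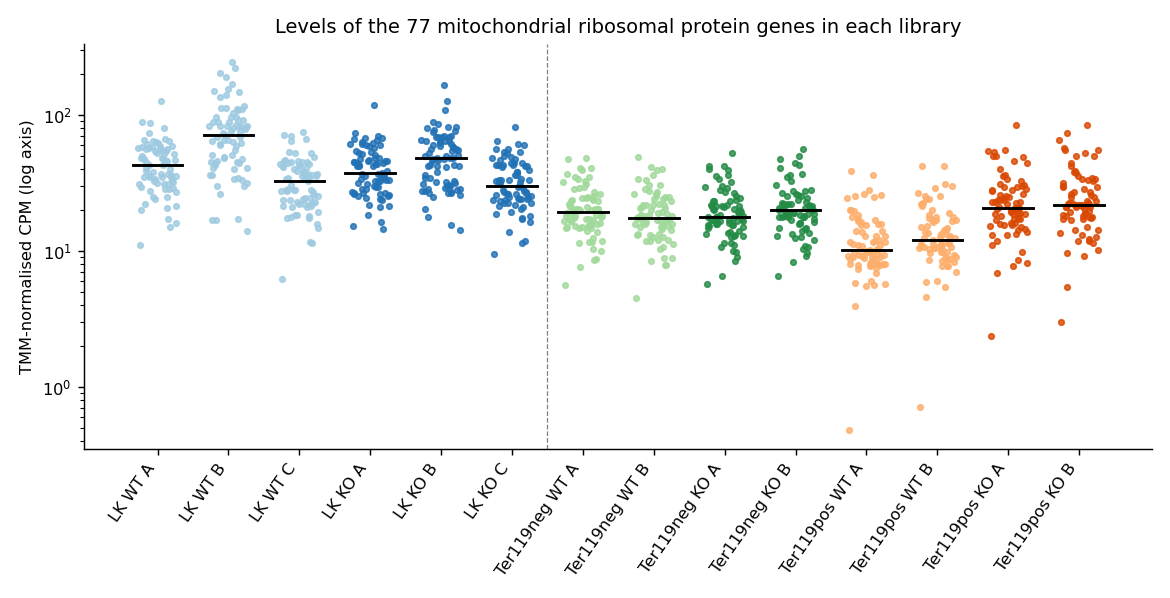
Level of the 77 genes in each of the 14 libraries, in TMM-normalised CPM on a log axis (points are genes, bars the median of the library, and the dashed line parts LK from fetal libraries, which were normalised separately). The medians per library were 10.22 and 12 CPM in Ter119pos WT, 20.72 and 21.91 in Ter119pos KO, and 17.44 to 19.87 in the Ter119neg libraries.

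Levels within the family are compared per kilobase of the longest annotated transcript, since the genes differ in length from 488 to 7300 bases (median 1849, against 2903 for all coding genes of the tables). The longest annotated transcript is non-coding for 23 of the 77, and a level per kilobase then depends on the choice of transcript. In Ter119neg WT cells the levels ran from 3.07 to 50.64 CPM per kilobase, with a median of 10.25. In Ter119pos WT cells they ran from 0.5324 to 46.31, with a median of 6.429, and in Ter119pos KO cells from 1.977 to 126.1, with a median of 13.58. The spread between the lowest and highest member was thus wider in both Ter119pos groups, 86.98 times in WT and 63.78 times in KO, than in the other 4 groups, where it was 16.5 to 21.48 times. Mrpl20, a large subunit protein with a bacterial counterpart, was highest in Ter119neg WT (50.64) and in LK WT cells (117.3). Mrps21, a small subunit protein, was highest in Ter119pos cells (46.31 in WT and 126.1 in KO). Mrps6, a small subunit protein at the platform of the bacterial ribosome, was lowest in Ter119pos WT cells (0.5324), on 7.72 and 12 counts. The 86.98 times in WT depend on this gene, since the next lowest member there, Mrps35, was at 1.38. In LK cells the highest member depends on the length used, since Mrpl33 leads per kilobase of the coding transcript (250.1 in WT).

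The order of the members was compared by mean CPM, not divided by length, so differences in length enter it in every group. This order agreed closely between genotypes of Ter119neg cells (Spearman's rho 0.92 over the 77 genes) and of LK cells (0.83). Between genotypes of Ter119pos cells it agreed less (0.69). Between the fractions it was 0.52 in WT and 0.40 in KO. Genes are not independent replicates and these values carry no test. Median small subunit level over median large subunit level, in CPM per kilobase, lay between 0.6321 and 1.014 in the 14 libraries.

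Loss of Prmt5 in Ter119pos cells addresses how transcripts of erythroid cells change when the methyltransferase is missing. With TMM scaling, 68 of the 77 genes rose and 1 fell by edgeR's quasi-likelihood test with Benjamini-Hochberg adjustment over 15566 genes, and with scaling to total counts 15 rose and 10 fell. Of all genes tested 24.8% rose and 29.3% fell with TMM, and 8.724% rose and 53.96% fell with total counts. The median log2 fold change of the 77 was 0.94, against -0.04 for all genes. With total counts it was 0.05 for the members, against -0.93 for all. Members' median minus all-gene median was 0.98 with both, a difference that a factor per library leaves nearly as it is by construction. The rise was more than 2-fold for 34 of the 77, and the share of all genes over 2-fold was not counted. In 70 members both KO libraries lay above both WT libraries, against 35.8% of all genes. Under every alternative run, scalings included, 15 of the 68 kept their call.

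Abundant RNA of other genes moved with genotype in this fraction. Structural non-coding RNA took 7.184% and 7.31% of counts in the Ter119pos WT libraries and 40.27% and 39.05% in the KO libraries. Globin genes took 25.12% and 24.58% in WT and 16.41% and 18.28% in KO. As a share of all counts the 77 genes took 0.07672% and 0.09481% in WT and 0.09064% and 0.08361% in KO, which overlap. As a share of coding counts without globins they took 0.1502% and 0.1854% in WT and 0.3133% and 0.3185% in KO, which do not overlap.

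**Figure D2:**
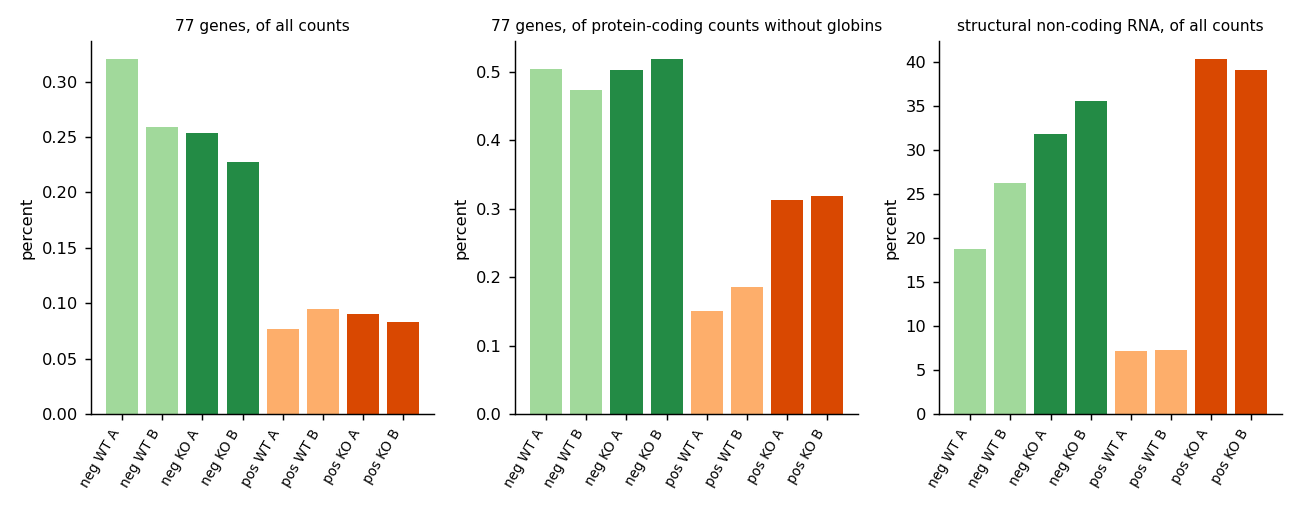
Bars give, for each fetal liver library in percent, the share of the 77 genes in all counts (left) and in coding counts without globins (middle), and the share of structural non-coding RNA in all counts (right). In Ter119pos cells the share of all counts overlaps between genotypes, and the share of coding counts without globins is 0.1502% and 0.1854% in WT and 0.3133% and 0.3185% in KO.

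Rises were called in every class with TMM scaling, and with total counts far fewer were (15 in all). In the large subunit, 30 of 31 proteins with a bacterial counterpart rose (median 0.94), as did 18 of 19 found only in mitochondria (0.92). In the small subunit 11 of 17 with a bacterial counterpart rose (1.06), and of the 9 found only in mitochondria 8 rose and 1 fell (0.72). Mrps36, the gene outside the mitoribosome, rose by 1.06.

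**Figure D3:**
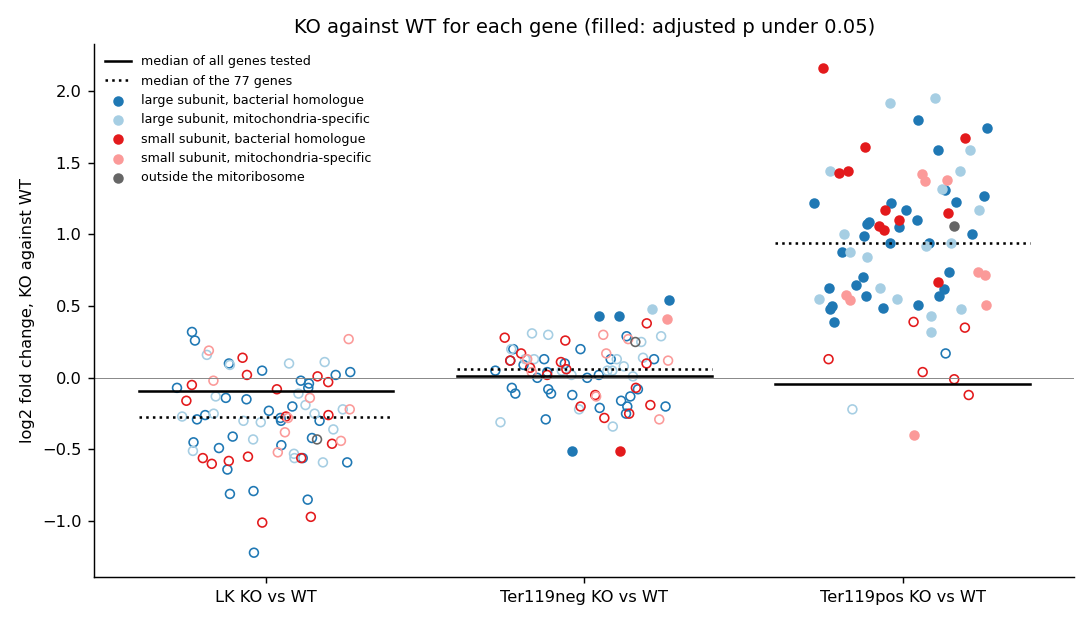
Log2 fold change KO over WT of each of the 77 genes (points, coloured by place in the ribosome, filled where the adjusted p was under 0.05) in the 3 cell types, TMM scaling. Solid lines are the medians of all genes tested and dotted lines those of the 77. With TMM 68 are called higher in Ter119pos cells, against 15 with total count scaling, and 5 are called higher in Ter119neg cells.

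The largest rises belonged to genes of both subunits. Mrps6 (chromosome 16, 92058270 to 92112227 on GRCm38) was measured at 0.481 and 0.7062 CPM in Ter119pos WT and at 2.38 and 3.02 in KO. This rested on 7.72 and 12 counts in WT against 34 and 35 in KO, and its log2 fold change was 2.16 ± 0.33 (SE, adjusted p = 1.36e-04 by edgeR's quasi-likelihood test). Mrps6 overlaps Slc5a3 on the same strand, so its counts may include reads of that gene. Mrpl52, a mitochondria-specific large subunit protein (chromosome 14, 54426909 to 54429756), was at 5.592 and 5.414 CPM in WT and at 20.72 and 21.91 in KO, with a change of 1.95 ± 0.14 on the log2 scale (SE; edgeR adjusted p = 3.40e-07). Mrpl54 (chromosome 10, 81264713 to 81266934), also mitochondria-specific, was at 8.899 and 10.47 in WT and at 36.26 and 37.27 in KO, with 1.92 ± 0.13 (SE; edgeR adjusted p = 2.49e-07). These 3 genes had no KO library near a WT library, and with total counts the log2 fold changes were 1.27, 1.06 and 1.03, still called higher by edgeR.

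Mrpl36, counterpart of the small bacterial protein of the same number, was at 7.817 and 9.827 CPM in WT and at 28.07 and 33.73 in KO. Mrpl32 (chromosome 13, 14608184 to 14613165), whose maturation by a mitochondrial protease is known to couple to ribosome assembly, was at 12.81 and 16.89 in WT and at 44.45 and 55.13 in KO. Mrps28, a small subunit protein, was at 8.959 and 10.65 in WT and at 30.1 and 32.44 in KO. Their log2 fold changes were 1.80 ± 0.16, 1.74 ± 0.15 and 1.67 ± 0.14 (SE), with edgeR adjusted p of 1.35e-06, 1.16e-06 and 9.07e-07. With total counts all 3 kept their direction (0.90, 0.84 and 0.78) and their call.

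Mrps25, a small subunit protein (chromosome 6, 92169525 to 92184033), was the only member called lower with TMM. It was at 28.2 and 25.36 CPM in WT and at 19.32 and 21.31 in KO, a change of -0.40 ± 0.12 on the log2 scale (SE, edgeR adjusted p = 0.01128). With the trend on transcript length removed the value was -0.09 and was not called. The call was also lost when KO library A (-0.33) or WT library A (-0.33) was left out, and made when either library B was. The 8 members that passed in neither direction were Mrpl47 (log2 fold change 0.17), Mrpl49 (-0.22), Mrps10 (0.35), Mrps17 (-0.12), Mrps18b (0.39), Mrps2 (0.04), Mrps5 (-0.01) and Mrps9 (0.13). Mrpl49 was at 25.55 and 23.95 CPM in WT and 20.51 and 22.17 in KO. Of the 8, 6 belong to the small subunit class with a bacterial counterpart. Leaving out each library in turn kept 56 of the 68 rises.

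Members with well known positions in the ribosome showed the range of responses. Mrps12, counterpart of the bacterial decoding protein that streptomycin resistance mapped to, was at 5.532 and 6.061 CPM in Ter119pos WT and at 13.02 and 11.82 in KO (log2 fold change 1.10; with total counts 0.22, not called). Mrpl11, at the stalk base where translation factors bind, was at 9.32 and 11.36 in WT and at 22.75 and 25.71 in KO (1.23; with total counts 0.33, not called). Mrps7, which contacts the head of the small subunit rRNA, was at 15.63 and 19.89 in WT and at 35.84 and 38.3 in KO (1.06; with total counts 0.16, not called). All 3 had KO libraries above the WT libraries by a wide margin in TMM-scaled CPM.

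Other members moved less or not at all. Mrpl3, near the peptidyl transferase center, was at 16.72 and 18.24 CPM in WT and at 25.76 and 26.14 in KO (0.57; with total counts -0.32). Mrps22, a mitochondria-specific small subunit protein, was at 9.681 and 13.71 in WT and at 16.87 and 18.12 in KO (0.58; with total counts -0.32). Mrpl44, which resembles an RNase III, was at 5.832 and 5.944 in WT and at 11.9 and 9.662 in KO (0.88; with total counts -0.00). For these 3 the direction thus turned, or came to 0, with the scaling, and with total counts none was called. Mrps2, which joins the small subunit late in bacterial assembly, was at 7.997 and 8.474 in WT and at 7.77 and 9.231 in KO, overlapping values.

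Cell type markers moved with these groups. Erythroid marker genes summed to 301429 to 336045 CPM in Ter119pos WT and 334996 to 439014 in KO, so the fraction was erythroid in both genotypes. This sum is mostly globin RNA, since all globin genes summed to 287558 to 317428 CPM in WT and 340653 to 447960 in KO. As a share of all counts globins were lower in KO, so the direction of this sum depends on the scaling. Neutrophil markers fell for 5 of 9 (54.26 to 130 CPM summed in WT, 18.97 to 59.96 in KO), endothelial and stromal markers rose for 4 of 6 and fell for 1 (6.414 to 9.38 in WT, 15.61 to 34.85 in KO) and hepatocyte markers rose for 3 of 8 (31.72 to 44.92 in WT, 55.93 to 84.29 in KO). Macrophage markers had 1 rise and 3 falls (38.25 to 68.06 in WT, 38.57 to 50.9 in KO). Their part in the result was not tested.

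In Ter119neg cells the family hardly moved. With TMM, 5 members rose and 2 fell, where 9.57% of all genes rose and 9.55% fell, and the median of the 77 was 0.06, against 0.01 for all genes. With total counts 9 fell, where 18.83% of all genes did, with a median of -0.26 (all genes -0.30). Mrpl32 was at 11.93 and 11.19 CPM in WT and at 16.52 and 17.16 in KO, a change of 0.54 ± 0.14 on the log2 scale (SE, edgeR adjusted p = 0.01876). Mrpl57, a mitochondria-specific large subunit protein, was at 20.47 and 17.3 in WT and 24.66 and 28.22 in KO, and Mrpl36 at 31.05 and 27.22 in WT and 36.15 and 42.56 in KO. Mrpl28 was at 40.78 and 40.22 in WT and at 52.93 and 56.34 in KO, and Mrps31 at 9.922 and 8.898 in WT and 12.95 and 12.08 in KO. These 5 rises were of 0.41 to 0.54 on the log2 scale, with both KO libraries above both WT libraries (31.5% of all genes had that), and with total counts they were of 0.10 to 0.23 and not called.

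The 2 falls kept their call with total counts. Mrpl20 was at 40.43 and 41.61 CPM in WT and at 29.97 and 27.8 in KO, a change of -0.51 ± 0.10 on the log2 scale (SE, edgeR adjusted p = 0.004622). Mrps15 was at 14.65 and 14.48 in WT and at 10.06 and 10.37 in KO, with -0.51 ± 0.12 (SE; edgeR adjusted p = 0.009277). In Ter119pos cells Mrpl20 was at 26.16 and 28.83 in WT and at 55.3 and 50.21 in KO. None of the 7 calls was made in every fit that left out a library: 2 members were called when KO library A was dropped and 1 when it was KO library B, and 3 and 2 when it was WT library A or B. All 9 macrophage markers fell in these cells (125.8 to 130.8 CPM summed in WT, 29.69 to 33.9 in KO), 4 of 7 progenitor markers fell (1119 to 1127 against 759.5 to 767.2) and 6 of 8 erythroid markers rose (479.3 to 571 against 851.5 to 1466). Their part in these 7 calls was not tested.

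The effect of Prmt5 loss differed between the fractions for most members with TMM scaling. The interaction term, the KO effect in Ter119pos minus that in Ter119neg, was higher for 58 of the 77 by edgeR, where 19.3% of all genes were higher and 22.4% lower, and total counts gave 14 higher and 2 lower, where 7.279% and 34.3% of all genes were. The median was 0.87, against -0.00 for all genes, and 0.29 against -0.58 with total counts. The largest differences were those of Mrpl54 (1.91 ± 0.17, SE, edgeR adjusted p = 1.41e-05), Mrps6 (1.88 ± 0.39, SE, 0.002059), Mrpl52 (1.82 ± 0.18, SE, 2.37e-05), Mrps16 (1.59 ± 0.19, SE, 7.02e-05), Mrpl23 (1.47 ± 0.16, SE, 3.55e-05) and Mrpl20 (1.45 ± 0.15, SE, 2.72e-05). Mrps16, a small subunit protein, was at 7.396 and 8.533 CPM in Ter119pos WT and at 23.59 and 25.11 in KO, but at 18.13 and 16.25 in Ter119neg WT and 15.7 and 19.1 in KO. The class medians were 0.87 and 0.86 for the large subunit classes, 1.11 for the small subunit proteins with a bacterial counterpart and 0.50 for those found only in mitochondria, of which 4 of 9 were called. Leaving out each library in turn kept 51 of the 58 calls.

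Comparing the fractions asks how the family differs between less and more mature fetal liver cells. In WT, 55 members were lower and 6 higher in Ter119pos than in Ter119neg cells with TMM, while all 77 were lower with total counts and with scaling to coding counts without globins. Of all genes 40.4% were lower and 35.9% higher with TMM, 65.03% were lower with total counts and 62.62% with coding counts without globins. The median of the members was -0.61, against -0.19 for all genes. Erythroid markers summed to 479.3 to 571 CPM in Ter119neg WT and 301429 to 336045 in Ter119pos WT, and 8 of 8 were higher. All 7 progenitor markers (1119 to 1127 against 79.38 to 89.11), 9 of 9 neutrophil and monocyte markers (1065 to 1132 against 54.26 to 130), 8 of 8 hepatocyte markers (275.7 to 443.7 against 31.72 to 44.92) and 7 of 9 macrophage markers (125.8 to 130.8 against 38.25 to 68.06) were lower. Endothelial and stromal markers (31.35 to 38.27 against 6.414 to 9.38) were lower for 5 of 6. Their part in the members' differences was not tested. Mrps6 fell most, from 5.603 and 4.485 CPM in Ter119neg to 0.481 and 0.7062 in Ter119pos, -3.08 ± 0.28 (SE, edgeR adjusted p = 7.19e-07). Mrps27, a mitochondria-specific small subunit protein, fell from 23.11 and 21.09 to 3.968 and 4.59, -2.37 ± 0.15 (SE; edgeR adjusted p = 1.96e-08). Mrpl12, whose protein also binds the mitochondrial RNA polymerase, fell from 48 and 39.63 to 8.057 and 11.18, -2.19 ± 0.17 (SE; edgeR adjusted p = 1.51e-07). These 3 had the largest falls of the named members with TMM. Total counts and coding counts without globins gave the same, which largely follows by construction from a factor per library. Mrpl36 (-1.72), Mrps26 (-1.61) and Mrpl44 (-1.52) followed.

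The 6 genes higher in Ter119pos WT cells with TMM were Mrpl53 (0.58 ± 0.13, SE), Mrps21 (0.45), Mrpl49 (0.43), Mrps36 (0.42), Mrps18c (0.39) and Mrpl32 (0.36), and each of them was lower with total counts and with scaling to coding counts without globins. Mrpl53 was at 8.716 and 7.92 CPM in Ter119neg and at 11.97 and 12.89 in Ter119pos. It overlaps Gm42688 on the same strand, so its counts may include reads of that gene. Mrps21 was at 16.63 and 16.51 in Ter119neg and at 19.66 and 25.54 in Ter119pos. Only 1 of the 6 calls was made in every fit that left out a library, with 1 to 8 members called higher. By class, 22 of 31, 14 of 19, 12 of 17 and 7 of 9 were lower, in the order given in the opening, with medians of -0.53, -0.64, -0.67 and -0.93.

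**Figure D4:**
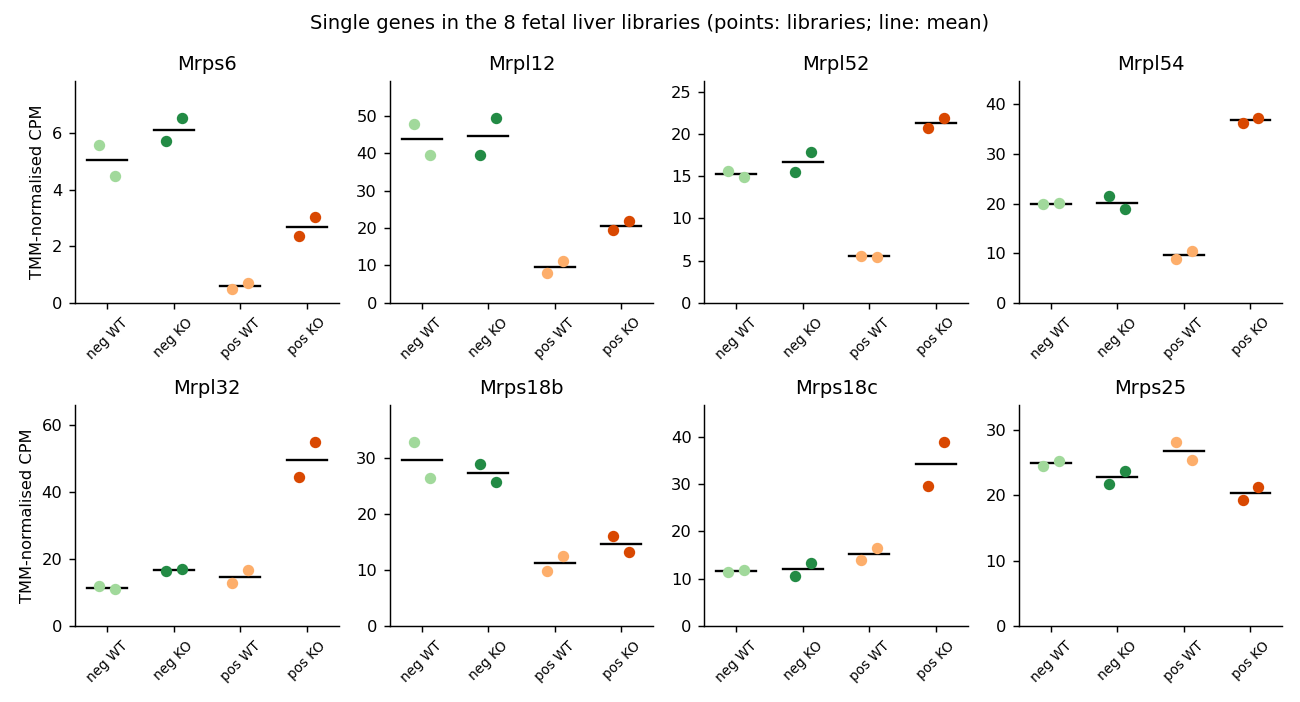
TMM-normalised CPM of 8 members in the fetal liver groups, each point 1 library and each line a group mean. Mrps6 lies at 0.481 and 0.7062 in Ter119pos WT, Mrpl52 and Mrpl54 rise in Ter119pos KO (with total counts by 1.06 and 1.03 on the log2 scale), and Mrps25 falls from 28.2 and 25.36 to 19.32 and 21.31.

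In KO cells the fractions differed in another way. With TMM, 36 members were higher and 18 lower in Ter119pos, where 30.3% and 32.3% of all genes were, but with total counts 72 were lower, and with coding counts without globins 5 were higher and 59 lower. Of all genes 78.8% were lower with total counts, and 13.16% were higher and 63.62% lower with coding counts without globins. The median was 0.20, against -0.12 for all genes, and the members stood above all genes by 0.12 to 0.43 under the alternatives. Of these calls 23 of 36 and 10 of 18 were made in every fit that left out a library, and members called lower were 11 without Ter119neg library A, 10 without its library B and 12 without Ter119pos library A. Mrps21 was at 16.77 and 17.98 CPM in Ter119neg KO and 49.84 and 73.24 in Ter119pos KO (1.82 ± 0.17, SE, edgeR adjusted p = 1.42e-06). Mrpl53 was at 9.101 and 10.67 in Ter119neg KO and at 32.9 and 34.68 in Ter119pos KO (1.77 ± 0.13, SE, edgeR adjusted p = 1.25e-07). Mrps27 was at 23.12 and 22.29 in Ter119neg KO and at 6.93 and 5.435 in Ter119pos KO (-1.87 ± 0.15, SE, edgeR adjusted p = 3.12e-07), and Mrps6 at 5.719 and 6.544 and at 2.38 and 3.02 (-1.19 ± 0.23, SE, edgeR adjusted p = 5.72e-04). Among markers in KO, 8 of 8 erythroid genes were higher in Ter119pos (851.5 to 1466 CPM summed in Ter119neg, 334996 to 439014 in Ter119pos), as were 6 of 9 macrophage genes, with 2 lower (29.69 to 33.9 against 38.57 to 50.9). All 7 progenitor genes (759.5 to 767.2 against 51.38 to 69.45), 9 of 9 neutrophil and monocyte genes (620.2 to 992.6 against 18.97 to 59.96) and 5 of 8 hepatocyte genes (127.3 to 259.4 against 55.93 to 84.29) were lower. Their part in the members' values was not tested.

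No library is shared between the WT and the KO comparison of fractions. With TMM, 18 members were lower in Ter119pos in both genotypes, among them Mrps6, Mrps27, Mrpl12 and Mrps26, and 5 were higher in both, namely Mrpl32, Mrpl53, Mrps18c, Mrps21 and Mrps36. The other 37 that were lower in WT were not lower in KO, and 19 of them were higher there. Under total counts none of these 5 was called higher in either genotype by edgeR. In WT they were at -0.80, -0.59, -0.77, -0.71 and -0.74 in that order, and in KO at -0.19, 0.03, -0.24, 0.06 and -0.53.

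The 3 proteins of the Mrps18 group, which take the place of a single bacterial protein, moved apart. Mrps18a belongs to the large subunit, whereas Mrps18b and Mrps18c belong to the small subunit. In WT, Mrps18b was at 32.82 and 26.36 CPM in Ter119neg and at 9.801 and 12.59 in Ter119pos, a change of -1.40 ± 0.16 on the log2 scale (SE, edgeR adjusted p = 4.76e-06). Mrps18c was at 11.36 and 11.81 in Ter119neg WT and at 13.89 and 16.42 in Ter119pos WT, with 0.39 ± 0.16 (SE, edgeR adjusted p = 0.04307). The ratio of Mrps18c to Mrps18b, which no scaling touches, was 0.3462 and 0.448 in Ter119neg WT and 1.417 and 1.304 in Ter119pos WT, and 0.3679 and 0.5239 in Ter119neg KO and 1.835 and 2.948 in Ter119pos KO. In each genotype both Ter119pos libraries lay above both Ter119neg libraries. Mrps18c overlaps Gm43511 on the same strand, so its counts and this ratio may include reads of that gene. In Ter119pos KO cells Mrps18c rose to 29.54 and 38.91 CPM (1.17 ± 0.16, SE, edgeR adjusted p = 5.77e-05; 0.27 with total counts, not called) and Mrps18b was at 16.1 and 13.2 (log2 fold change 0.39, edgeR adjusted p = 0.07302). In LK cells the ratio was 0.5841, 0.7386 and 0.789 in WT and 0.3941, 0.5972 and 0.5152 in KO.

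The members are short genes, and in Ter119pos KO cells change went with length. Genes were split into 8 bins of equal size by the length of the longest annotated transcript. In the shortest bin (69 to 1141 bases) the median log2 fold change of all genes was 0.91 and 47.03% rose, and the 26 members in it had a median of 1.17, with 25 called higher. In the longest bin the median of all genes was -0.39, and the 3 members in it had a median of 0.48. In each of the 8 bins the median of the members lay above that of all genes of the bin, with TMM scaling. Across genes, length and change had a Spearman's rho of -0.48 over the members and -0.21 over all genes, given as a description. When a smooth trend on length was removed from each library, 64 members rose and 1 fell, a member other than Mrps25. Of all genes 25.61% rose and 26.66% fell in that fit. The median of the members was 0.76, and they stood 0.74 above all genes. In Ter119neg cells the shortest bin had a median of 0.22 over all genes, and the members in it had 0.10. In LK cells change went the other way with length, with a rho of 0.23 over members and 0.29 over all genes.

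**Figure D5:**
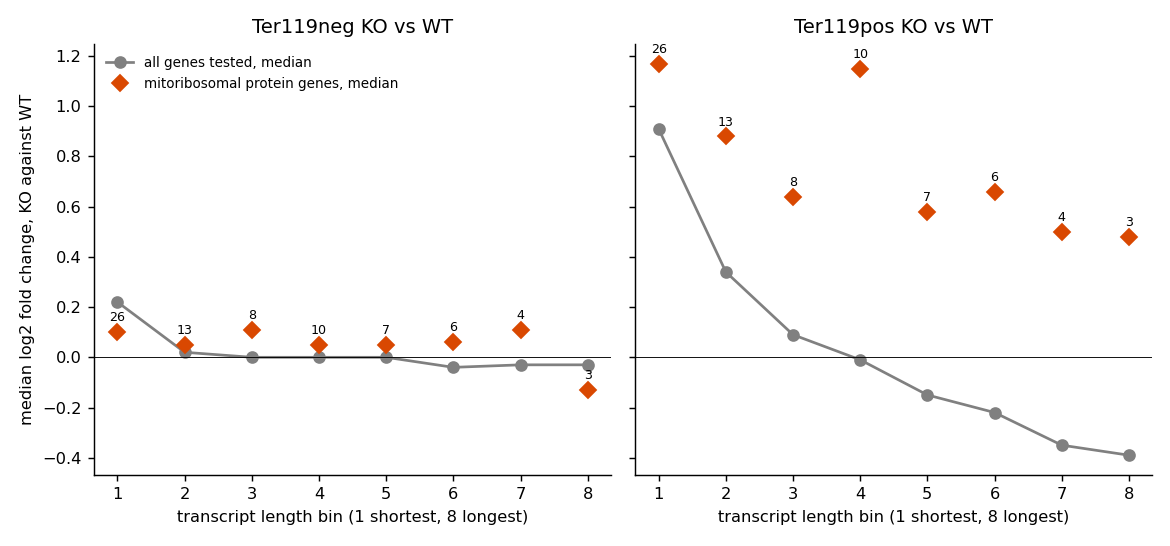
Median log2 fold change KO over WT by bin of transcript length, for all genes tested (grey) and for the 77 members (diamonds, with the number in the bin), in Ter119neg and Ter119pos cells, TMM scaling. In the shortest bin of Ter119pos cells all genes have a median of 0.91 and the 26 members 1.17, and with total counts the median over all bins is 0.05 for members and -0.93 for all genes.

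In 23 members the start site lies within 1000 bases of the start of a coding gene that runs the other way, with at most 200 bases of overlap, and 22 of these partners were tested in the fetal libraries. The strand setting of the counting was not stated, so reads of overlapping partners may be shared. In Ter119pos KO cells the 22 members had a median of 1.00, whereas their partners had -0.04, with 5 higher and 8 lower, near the 24.8% and 29.3% of all genes. Mrps7 had 1.06 and its partner Gga3, a sorting adaptor gene, -1.20. Mrpl57 had 1.59 and Ska3, a kinetochore gene, -1.10. Mrpl32 and its partner Psma2, a proteasome subunit gene, had 1.74 and 1.59, and Mrpl54 and Apba3 had 1.92 and 1.52. Mrpl49, itself not called (-0.22), lies beside Fau, a cytosolic ribosomal protein gene, which had 2.33.

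Other genes of mitochondrial translation were counted for comparison, from lists chosen with earlier results of these data known, in Ter119pos KO cells with TMM and then with total counts, beside the 24.8% of all genes that rose and 29.3% that fell with TMM, and 8.724% and 53.96% with total counts. Of 6 mitoribosomal proteins under other names, 5 rose and 1 fell (2 and 1 with total counts), with a median of 1.34. Aurkaip1 (1.42), Gadd45gip1 (1.31), Chchd1 (1.58), Ict1 (1.37) and Dap3 (0.87) rose and Ptcd3 fell (-0.59 ± 0.11, SE, edgeR adjusted p = 5.23e-04). Of 14 translation factors 8 rose and 3 fell (6 fell with total counts). Of 22 genes listed as mitochondrial aminoacyl-tRNA synthetases 5 rose and 5 fell (1 and 17 with total counts), with TMM near the share of all genes that rose. That list also holds Qrsl1, Gatb and Gatc, which are not synthetases. The synthetase Lars2 was at 81.83 and 75.74 CPM in Ter119pos WT and at 273.4 and 276.9 in KO. Its level varied widely within other groups, at 53.29 and 898.7 in Ter119neg WT. In LK libraries A to C it was at 92.8, 33859 and 1368 in WT and at 74.15, 25963 and 779.2 in KO. The cause was not tested, and the Ter119pos values may not be a clean level of this gene. Of 28 assembly and rRNA modification genes 13 rose and 4 fell (13 fell with total counts). Beside the 68 of 77 members that rose with TMM (15 with total counts), 78 of 78 cytosolic ribosomal proteins rose (median 2.01; 75 with total counts), and 73 of 74 nuclear-encoded subunits of oxidative phosphorylation (1.26; 31 rose and 5 fell with total counts). Differences between these lists were not tested. The 13 messenger RNAs that the mitochondrial genome encodes, the only templates of this ribosome, had a median of 0.55, with 9 higher (2 higher and 5 lower with total counts). Among regulators, Nrf1 fell (-1.24 ± 0.10, SE, edgeR adjusted p = 1.04e-06), as did Gabpa (-0.87) and Yy1 (-0.63), and Esrra rose (1.43).

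The same lists were counted between the fractions with TMM, with no test of the difference between lists. In WT, where 35.9% of all genes were higher in Ter119pos and 40.4% lower, of the oxidative phosphorylation subunits 32 were higher and 16 lower in Ter119pos (median 0.16), and of the cytosolic ribosomal proteins 1 was higher and 35 lower (-0.37), beside 6 and 55 of the mitoribosomal members (-0.61). In KO cells, where 30.3% of all genes were higher and 32.3% lower, 68 oxidative phosphorylation subunits were higher in Ter119pos (1.48), and 78 cytosolic ribosomal proteins were higher (1.41), beside 36 and 18 of the members (0.20). With total counts the members were lower in 77 and in 72 cases in the 2 genotypes.

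In LK cells no member passed the test. Of the 77, 0 were called in either direction by edgeR's quasi-likelihood test, where 1.15% of all genes rose and 0.661% fell, and DESeq2 also called 0. At an unadjusted p under 0.05, 0 members were higher and 2 lower. In LK cells neither the share of all genes under that cut nor the share without overlap between genotypes was counted. The median log2 fold change was -0.27, against -0.09 for all genes, and single members had standard errors of 0.20 to 0.83. The median of the members was -0.07 with total counts (all genes 0.04), -0.03 with coding counts without globins (0.10) and -0.08 with the length trend removed (-0.08). Mrpl24, a large subunit protein, had the smallest p, at 73.29, 83.16 and 64.02 CPM in WT and at 51.49, 47.45 and 42.67 in KO, a change of -0.64 ± 0.20 on the log2 scale (SE, edgeR adjusted p = 0.1696). No KO library of Mrpl24 reached a WT library. Mrps15 was at 44.23, 58.85 and 35.45 in WT and at 32.96, 30.72 and 29.9 in KO, also without overlap (edgeR adjusted p = 0.2852), and Mrpl14 was at 24.27, 139.7 and 18.43 in WT and 18.25, 46.44 and 13.76 in KO, overlapping widely.

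Libraries B of the LK groups stood apart in both genotypes. In them structural RNA took 18.07% and 23.45% of counts, and coding genes 70.37% and 61.27%, against 97.7% to 97.9% in the other LK libraries. The 77 genes summed to 3416, 6068 and 2578 CPM in LK WT libraries A to C and to 3177, 3945 and 2570 in KO. The members' median was 0.14 with library B of WT left out and 0.02 with both B libraries left out. It was -0.41 without KO library B, -0.12 without KO library C and -0.47 without WT library C. With the letter as a block, 5 members fell by edgeR, namely Mrpl24 (-0.63), Mrpl17 (-0.72), Mrpl33 (-0.69), Mrps25 (-0.50) and Mrpl10 (-0.47), where 12.8% of all genes fell and 9.9% rose. Thus 5 of 77 was less than the background share of falls. The neutrophil and monocyte markers summed to 9297 to 37806 CPM in WT and 3405 to 9819 in KO, with a median log2 fold change of -2.38 over the list. These sums overlapped between genotypes, as did those of erythroid, hepatocyte, megakaryocyte, lymphoid, and endothelial and stromal markers. Progenitor markers summed to 11803 to 17298 CPM in WT and 6803 to 9590 in KO. Macrophage markers summed to 239.2 to 303.2 in WT and 109.6 to 228.3 in KO. The part of any of these markers in the members' values was not tested.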

How the data were processed

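RNA was isolated with Trizol from fetal liver cells and on columns from LK cells, and sequenced with a stranded kit for total RNA (Ribo-Zero is named for fetal liver), per the labels' protocols. STAR 2.5.3 and RSEM are the tools, and GRCm38 (mm10) the build, that the submitters' processing notes name. Their RSEM version, annotation release and strand setting: not given in the sources used here. Values as deposited are expected counts per gene from the authors' RSEM run, 1 table for the 8 fetal libraries and 1 for the 6 LK libraries.

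Expected counts were rounded and analysed with edgeR 4.0.16 in R 4.3.3 (TMM, filterByExpr, quasi-likelihood F tests, Benjamini-Hochberg adjustment within each comparison, called under 0.05). The fetal libraries formed 1 model and the LK libraries another, with 15566 and 13771 genes tested. The 6 comparisons were KO against WT in each cell type, the interaction, and the fraction difference (Ter119pos over Ter119neg) for each genotype. An SE is the absolute log2 fold change over the root of the F statistic. CPM values are TMM-normalised; the fetal and LK tables were normalised separately and their levels are not compared. Lengths and coordinates are from GENCODE M21, in which 45143 of 45706 identifiers matched, and sequences from RefSeq GRCm38.p6. Scripts were tested on simulated data.

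Members, gene lists and alternatives were chosen with earlier results of these data known. The rule named, per comparison and direction, up to 6 called members with the largest change, or the 3 with the smallest p where fewer than 3 were called, the Mrps18 group, members with textbook roles, the highest and lowest per kilobase, members called in opposite directions, up to 4 genes of each partner list, and Prmt5. The 8 members not called in Ter119pos cells, Mrpl17, Mrpl33, Mrpl10 and the genes beside divergent starts were named after their values were seen.

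LK libraries of the same letter deviated together (r of 0.699, 0.8 and 0.817), so the letter was fitted as a block. The labels give the same mouse number to both KO fractions and to library B of both WT fractions, and mouse was fitted as a block across fractions. Deviations of the 2 libraries of a mouse had an r of 0.307 for mice 1 and 2 and of -0.147 for mouse 4, each fixed by the mirrored deviations in groups of 2. Alternatives were DESeq2 1.42.0, RLE, other filters, models of 1 cell type, the blocks, removal of a trend (lowess, span 0.3) on length or GC, and each library left out. Scaling to total counts and to coding counts without globins was chosen after seeing the data.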

Additional observations from a re-analysis of the deposited data

Results flagged for a closer look

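The KO effect differed between Ter119pos and Ter119neg cells for 58 members by the interaction term of edgeR, each higher in Ter119pos, with TMM scaling (14 higher and 2 lower with total counts). The largest single differences were those of Mrpl54 (1.91), Mrps6 (1.88), Mrpl52 (1.82), Mrps16 (1.59), Mrpl23 (1.47) and Mrpl20 (1.45), all on the log2 scale. Each was tested by that term.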

How the results depend on the processing

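Results that rest on 2 libraries a group are limited by the spread of a few samples, and Mrps6 by its low counts.

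With scaling to total counts the median log2 fold change was -0.26 in Ter119neg KO and -1.54 for the fractions in KO, both reversed, and it was 0.05 in Ter119pos KO (25 calls), 0.29 for the interaction (16 calls) and -1.78 for the fractions in WT. Single genes that reversed included Mrps18a (-0.19), Mrps22 (-0.32), Mrpl3 (-0.32) and Mrpl44 (-0.00) in Ter119pos KO, and Mrps18a (-0.01), Mrpl3 (-0.05) and Mrpl44 (-0.01) in the interaction. This list and the next ones are not complete, since other members with small rises under TMM turn with the same shift. For the fractions in WT the reversed genes included Mrpl53 (-0.59), Mrps21 (-0.71), Mrpl49 (-0.74), Mrps36 (-0.74), Mrps18c (-0.77) and Mrpl32 (-0.80), and in KO Mrpl14 (-0.07), Mrpl32 (-0.19), Mrps18c (-0.24), Mrps36 (-0.53), Mrpl11 (-1.28) and Mrps16 (-1.25). With coding counts without globins the fractions' medians were -1.56 in WT and -0.77 in KO, and the reversed genes included Mrpl53 (-0.37), Mrps21 (-0.50), Mrpl49 (-0.52), Mrps36 (-0.53), Mrps18c (-0.56) and Mrpl32 (-0.59) in WT, and Mrpl11 (-0.51) and Mrps16 (-0.49) in KO. For the fractions in WT, Mrps21 was -0.03 with the length trend removed and Mrpl32 -0.09 with the GC trend removed. With the 2 scalings every gene of a library is divided by the same factor, so fold changes between fetal groups shifted nearly alike for all genes. In LK cells they shifted less alike. The members' median minus the all-gene median was -0.18 there with TMM and -0.11 with total counts. For the trend removals and the other values the cause was not tested.

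The length trend removed gave a median of 0.76 in Ter119pos KO and 0.04 for the fractions in KO, and models of 1 cell type gave 1.12 in Ter119pos KO. TMM over coding genes gave 0.35 for the fractions in KO. No low count filter gave -0.76 and 0.11 for the fractions in WT and KO. The mouse block gave medians of 0.72 for the interaction and -0.44 for the fractions in WT, and with the length trend removed as well 0.63, -0.44 and, for KO, 0.04. Only mouse 4 gave both WT fractions, so the WT difference in these fits, and its part of the interaction, rests on that mouse alone. The mouse block also leaves little from which to estimate the spread. The letter block called 5 members in LK cells. With the length trend removed as well it called 7, where 9.854% of all genes rose and 14.76% fell. The blocks moved no other count of calls by over 1.5 times.

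In LK cells the median was -0.07 with total counts, -0.03 with coding counts without globins and -0.08 with the length trend removed. Leaving out each library in turn, it ran from -0.47 to 0.14, calls in Ter119neg KO ran from 1 to 3 (medians -0.04 to 0.11), the interaction median from 0.77 to 1.13, that of the fractions in WT from -0.74 to -0.51 and in KO from 0.19 to 0.38. Other single-gene values kept direction and call in 1639 cases, and lost a call in 107.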
